A study of Arabidopsis thaliana with 24 samples.

Results

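The 6 libraries described here come from seedlings that are all mutated in the histone chaperone gene NASP and differ in which other component of the NuB4 complex is mutated. The 3 hag2 nasp libraries (hag2-/- nasp-/-) also carry a mutation in the histone acetyltransferase gene HAG2. The 3 msi2 msi3 nasp libraries (msi2-/- msi3-/-nasp-/-) instead carry mutations in MSI2 and MSI3, a pair of genes for histone-binding WD-40 proteins. They were selected by genotype and age alone, and are 6 of the 24 libraries of the series and 6 of the 15 made at 12 days. The other 9 libraries at that age, 3 each of hag2 msi2 msi3, nasp and wild type Col-0, gave the model its estimate of spread and are quoted for context. Seedlings of every genotype were 12 days old, had grown on Murashige and Skoog plates with 16 h of light and 8 h of darkness at 22°C, and were sequenced as RNA with 50 bp single-end reads. The labels name no alleles, and hag2 or msi2 msi3 seedlings with an intact NASP gene at 12 days were not analysed here. The contrast therefore compares a double with a triple mutant and cannot be split into the effect of each mutation. Nothing in the labels says that replicates were grown separately, so p-values measure the spread between these libraries, which may be technical.

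In eukaryotes, newly made histone H4 is acetylated before it is deposited on DNA, by a type B enzyme of which HAG2 is the Arabidopsis member. Proteins of the MSI family hold the histone for the enzyme, and NASP binds H3 and H4 and hands them on towards chromatin. The question behind the contrast is how a mutated enzyme gene differs from mutated genes of its histone-binding partners when NASP is mutated in both.

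The genotypes differed at a limited set of genes, led by a group that rises under phosphate starvation and by a handful of loci with very large differences. Of 24305 genes tested, 1539 differed (6.33%), with 746 higher (3.07%) and 793 lower (3.26%) in hag2 nasp than in msi2 msi3 nasp. Values are the normalized read values that the authors deposited, differences are hag2 nasp minus msi2 msi3 nasp on the log2(value + 1) scale, and the threshold for a call was an adjusted p of 0.05 (limma, Benjamini-Hochberg adjustment over all tested genes). Most called differences were small, with a median absolute size of 0.46 on that scale. At least 2-fold differences were called for 103 genes higher and 87 genes lower in hag2 nasp. Over all tested genes the median difference was -0.0013. Against the nasp libraries, 66.8% of genes were called for hag2 nasp and 66.9% for msi2 msi3 nasp. Against wild type the shares were 66.3% for hag2 nasp and 66.8% for msi2 msi3 nasp, and these side contrasts share their control libraries. The 6 normalized library totals lay between 19582000 and 20449000. Pearson's r between libraries, across genes on the log2 scale, was 0.989 to 0.991 within hag2 nasp, 0.989 to 0.990 within msi2 msi3 nasp and 0.986 to 0.988 between them. The first principal component, with 29.9% of the variance, separated the genotypes, and the second, with 20.8%, set replicate 3 of both genotypes apart from replicates 1 and 2. Without both of those replicates 1514 genes were called. A fit on the 6 libraries alone, with fewer degrees of freedom for the spread, called 193 genes, of which 185 were among the 1539. In whole seedlings, fewer cells of a type and less RNA per cell cannot be told apart for any gene named here.

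**Figure D1:**
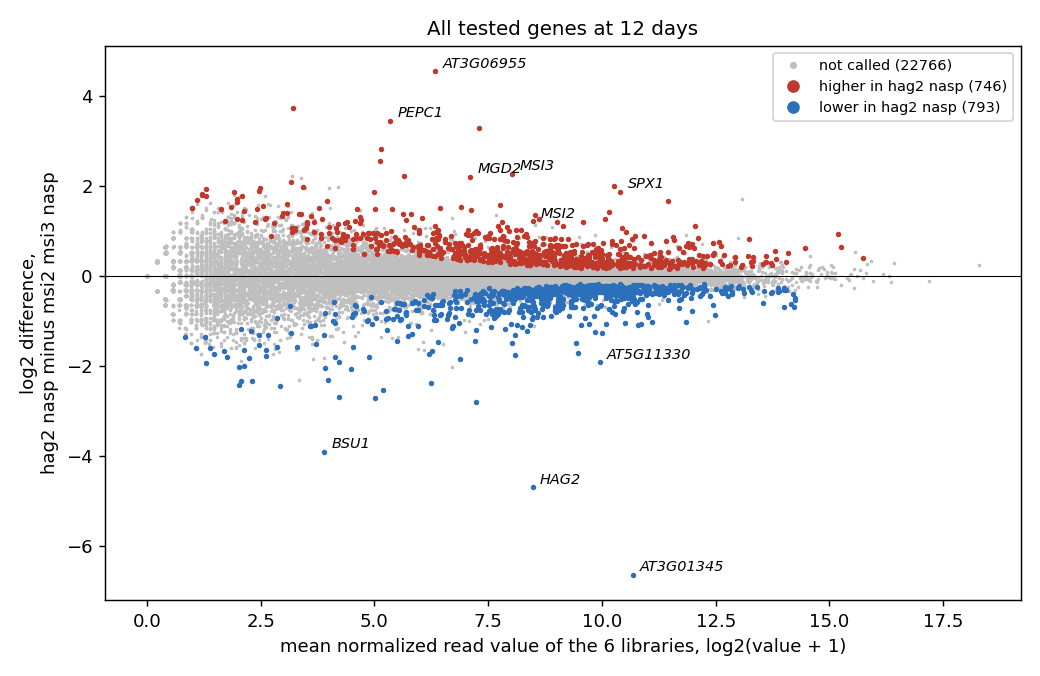
Each point is a tested gene, with the mean of the 6 libraries on the x axis (log2 of the normalized read value + 1) and the log2 difference, hag2 nasp minus msi2 msi3 nasp, on the y axis. The 746 genes called higher are red and the 793 called lower are blue, and most of them lie close to the 0 line, while AT3G01345, HAG2 and AT3G06955 stand far from it.

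The mutated genes were read first, as a check of the labels. HAG2 had 18.1, 26.7 and 34.3 in hag2 nasp, against 701, 665 and 693 in msi2 msi3 nasp. The hag2 nasp libraries were all far below, and the msi2 msi3 nasp libraries all above, the nasp level of 414 ± 28.9 and the wild-type level of 409.9 ± 32.4 (mean ± SD, n = 3). The log2 difference was -4.70 ± 0.17 (SE, limma, adjusted p = 8.5e-12). MSI3 had 439.5, 398 and 458 in hag2 nasp, against 83.4, 75.2 and 108 in msi2 msi3 nasp. No library of either genotype came near the other, with a log2 difference of 2.28 ± 0.12 (adjusted p = 5.5e-09). In nasp MSI3 averaged 232 ± 26.9 and in wild type 289 ± 13.3, so that hag2 nasp stood above both and msi2 msi3 nasp below both. MSI2 had 492, 458 and 554 in hag2 nasp, against 215, 199 and 227 in msi2 msi3 nasp, a log2 difference of 1.22 ± 0.09 (adjusted p = 2.7e-07). The MSI2 values of msi2 msi3 nasp were thus lowered but not absent, and in the hag2 msi2 msi3 libraries MSI2 averaged 439 ± 45.3, against 472 ± 10.9 in wild type. NASP had 151, 131 and 118 in hag2 nasp, against 147, 128 and 143 in msi2 msi3 nasp, with overlapping libraries and a log2 difference of -0.07 ± 0.14 (adjusted p = 0.85). Both groups lay well below the wild-type mean of 512 ± 31.0. The remaining relatives, MSI1, FVE and MSI5, which also encode WD-40 proteins, were not called, with log2 differences of -0.08, -0.15 and 0.01. MSI2 and MSI3 each overlap a gene on the opposite strand in the TAIR10.1 annotation, and no source used here says whether strand was used in counting.

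The largest difference in the whole contrast was at AT3G01345 (chr3:129138-130749, plus strand, TAIR10.1), a gene for an uncharacterized protein. It had 42.1, 28.5 and 25.4 in hag2 nasp, against 3234, 3250.4 and 3232 in msi2 msi3 nasp. The 3 msi2 msi3 nasp values were almost identical, and every hag2 nasp value was far below them, giving a log2 difference of -6.65 ± 0.38 (limma, adjusted p = 1e-08). The gene varied strongly over the other genotypes: it had 1522, 2201 and 881 in hag2 msi2 msi3, 6.10, 7.30 and 8.30 in nasp and 456, 151 and 677 in wild type. High values therefore appeared in both genotypes with msi2 msi3 mutations, low values in nasp and hag2 nasp, and intermediate, scattered values in wild type. BSU1, a phosphatase gene of brassinosteroid signalling, was also lower in hag2 nasp, at a much lower level. It had 2.01, 0 and 0.977 in hag2 nasp, against 18.8, 31.2 and 30.7 in msi2 msi3 nasp, with a log2 difference of -3.91 ± 0.35 (adjusted p = 4e-06). Its mean was 67.9 ± 7.78 in hag2 msi2 msi3, 3.45 ± 0.619 in nasp and 5.45 ± 0.798 in wild type. AT3G06955 (chr3:16498192-16498394, minus strand) was higher in hag2 nasp and is annotated as a non-coding RNA. It had 165, 117 and 181 in hag2 nasp, against 3.74, 8.56 and 4.95 in msi2 msi3 nasp, and the log2 difference of 4.56 ± 0.44 was the largest in that direction (adjusted p = 7.6e-06). AT3G06955 averaged 4.01 ± 4.299 in hag2 msi2 msi3, 154 ± 16.0 in nasp and 28.1 ± 14.1 in wild type. Another non-coding RNA, AT2G04885, had 11.05, 33.8 and 4.80 in hag2 nasp, and was listed at 0 in all 3 msi2 msi3 nasp and all 3 wild-type libraries. Its values in nasp were 35.4, 9.58 and 18.8, and its call was lost in the fit on 6 libraries. QQS, a gene known for its variable silencing by DNA methylation, had 452, 347 and 392.3 in hag2 nasp, against 212, 211 and 161 in msi2 msi3 nasp, a log2 difference of 1.03 ± 0.14 (adjusted p = 0.0002). In wild type QQS averaged 101 ± 5.92. The other silenced genes tested, SDC and FWA, were at low levels and not called, at log2 differences of -0.68 and -0.75.

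**Figure D2:**
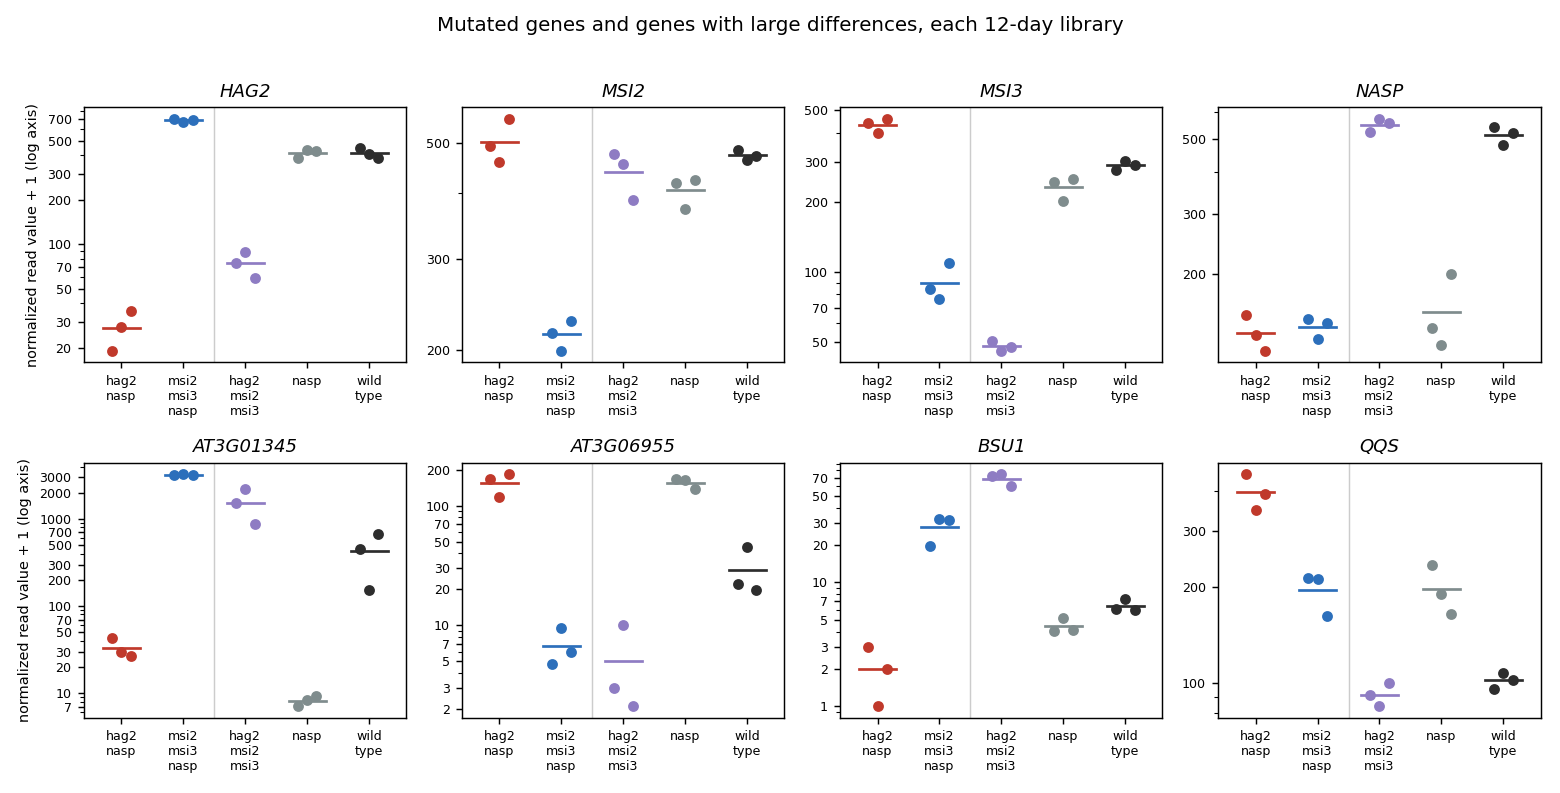
Normalized read value + 1 (log axis) in each of the 15 libraries at 12 days for 8 genes, with a point per library and a bar at the mean of 3, and hag2 nasp and msi2 msi3 nasp left of the grey line. HAG2 is low in hag2 nasp and MSI2 and MSI3 are low in msi2 msi3 nasp, while NASP is low in both, and AT3G01345, AT3G06955 and BSU1 separate the genotypes without overlap.

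Genes of the phosphate starvation response were often higher in hag2 nasp. Plants short of phosphate switch on genes through the transcription factor PHR1, and SPX proteins hold PHR1 back when phosphate is plentiful. The response brings in phosphate transporters and phosphatases, and replaces phospholipids in membranes with galactolipids and sulfolipids. Of the 27 list members, all tested, 15 were higher in hag2 nasp (55.6%, against 6.33% of all tested genes called), none was lower, and 24 lay above 0. The median log2 difference of the 27 was 0.63. Set against nasp, the median was 0.23 for hag2 nasp and -0.75 for msi2 msi3 nasp. Set against wild type, it was -0.21 for hag2 nasp and -1.04 for msi2 msi3 nasp. Leaving out any 1 of the 6 libraries left 13 to 15 members called, and the fit on 6 libraries called 6. Root markers other than PYK10 moved in the same direction: these 18 summed to 2627 to 2965 in hag2 nasp and 1900.4 to 1945 in msi2 msi3 nasp, against 6594 to 7099 in wild type. PYK10 is by far the most abundant marker and dominates the sum of all 19. That sum was 60837.5 to 69662 in hag2 nasp, 51768.4 to 61709.3 in msi2 msi3 nasp and 51320.9 to 59843.1 in wild type. With PYK10 the 2 genotypes thus overlapped, and neither lay below wild type. The part of root content in the phosphate differences was not tested.

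Among the regulators, SPX1 had 2166, 1796 and 2439 in hag2 nasp, against 539, 649 and 546 in msi2 msi3 nasp. The lowest hag2 nasp library was far above the highest msi2 msi3 nasp library, with a log2 difference of 1.88 ± 0.17 (limma, adjusted p = 5e-06). SPX1 averaged 1347 ± 128 in nasp and 1788 ± 531 in wild type, so the msi2 msi3 nasp libraries were the low ones. SPX3 had 91.3, 53.9 and 101 in hag2 nasp, against 15.1, 24.7 and 10.9 in msi2 msi3 nasp, a log2 difference of 2.24 ± 0.33 (adjusted p = 0.00044). SPX2, at a difference of 0.68 ± 0.10, was also higher in hag2 nasp (adjusted p = 0.00049). The non-coding RNA AT4, which binds and blocks the microRNA miR399, had 187, 168 and 171 in hag2 nasp, against 40.4, 63.2 and 83.3 in msi2 msi3 nasp (1.53 ± 0.18, adjusted p = 4.4e-05). Both genotypes were far below nasp, at 1294 ± 133, and wild type, at 1917 ± 354. The related RNA IPS1 had 10.03, 5.67 and 6.84 in hag2 nasp, against 3.85, 0 and 0.987 in msi2 msi3 nasp, again far below its wild-type mean of 353 ± 136. The gene for PHR1 itself was not called, at -0.13 ± 0.06, and neither was that for PHO2, the ubiquitin-conjugating enzyme that miR399 represses, at 0.02 ± 0.10.

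Among the lipid genes, MGD2, which encodes a galactolipid synthase, had 228, 199 and 249 in hag2 nasp, against 39.7, 56.8 and 47.5 in msi2 msi3 nasp. The groups were well separated, with a log2 difference of 2.21 ± 0.16 (adjusted p = 2.8e-07). MGD2 averaged 253 ± 29.4 in nasp and 344 ± 79.5 in wild type. SRG3, annotated as senescence-related gene 3 and encoding a glycerophosphodiester phosphodiesterase that acts in phospholipid breakdown, had 2036, 1684 and 2180.1 in hag2 nasp, against 445, 529 and 477 in msi2 msi3 nasp (2.02 ± 0.16, adjusted p = 8.4e-07). PLDZETA2, a phospholipase D gene, had 759.6, 601 and 799.6 in hag2 nasp, against 288, 345 and 300.1 in msi2 msi3 nasp (1.203 ± 0.15, adjusted p = 8.8e-05). The sulfolipid synthesis genes SQD1 and SQD2 were higher by 0.39 ± 0.09 and 0.74 ± 0.12 (adjusted p = 0.019 and 0.00075). MGD3, a second galactolipid synthase gene, was higher by 1.52 ± 0.41 (adjusted p = 0.032), at levels far below wild type in both genotypes.

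Among the phosphatases and transporters, PEPC1, a phosphatase gene that acts on phosphoethanolamine and phosphocholine, had 100.3, 40.4 and 79.3 in hag2 nasp, against 1.80, 10.5 and 6.94 in msi2 msi3 nasp. All hag2 nasp values were above all msi2 msi3 nasp values, and the log2 difference of 3.46 ± 0.44 was the largest in the list (adjusted p = 0.00011). Even the hag2 nasp values were below those of nasp, 199, 229 and 193, and wild type, 251, 697 and 728. The purple acid phosphatase gene PAP17 was higher by 0.73 ± 0.16, the phosphate transporter gene PHT1;4 by 0.83 ± 0.15, and PHF1, needed for transporters to leave the endoplasmic reticulum, by 0.53 ± 0.10 (adjusted p = 0.01, 0.0028 and 0.0044). Not called were the transporter genes PHT1;1, PHT1;5, PHT1;8 and PHT1;9, the exporter gene PHO1 and its homologue PHO1;H1. Their differences ran from -0.32 for PHT1;8, which was at or near 0 everywhere, to 0.63 for PHT1;5. The acid phosphatase genes PAP10, PAP12 and PS2 and the ribonuclease gene RNS1 were not called either, at -0.25, 0.18, 0.52 and 0.39. In the fit on 6 libraries the calls of SPX3, PEPC1, AT4, PHT1;4, SQD2, IPS1, PAP17, MGD3 and SQD1 were lost. MGD3 was also lost in 7 other settings and SQD1 in 4.

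**Figure D3:**
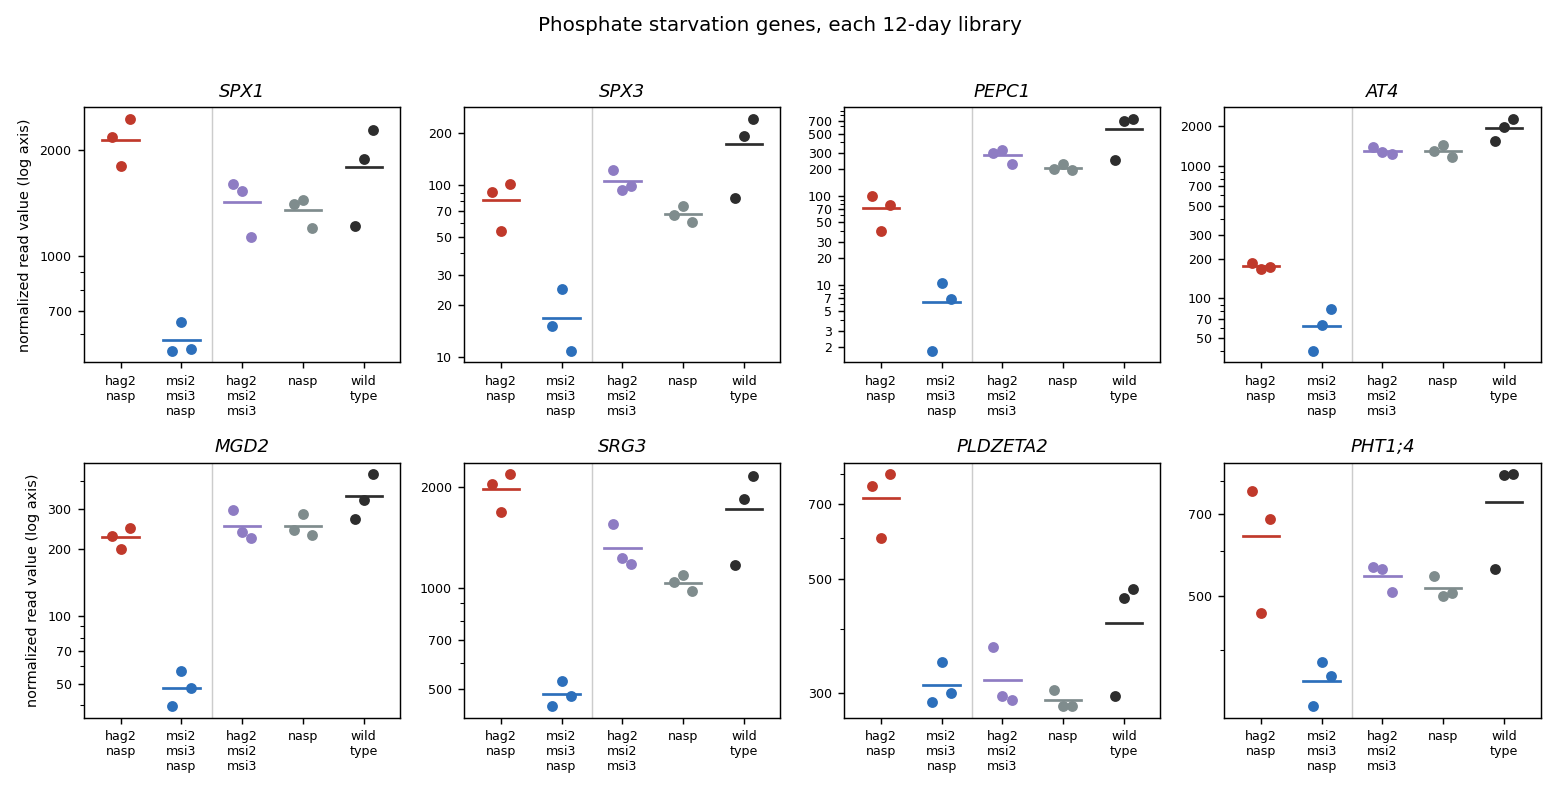
Normalized read value (log axis) of 8 phosphate starvation genes in each of the 15 libraries, with a bar at the mean of 3. In every panel the 3 hag2 nasp points lie above the 3 msi2 msi3 nasp points, and for SPX1, SPX3, SRG3 and PHT1;4 they overlap the wild-type points while msi2 msi3 nasp lies below them.

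The promoters of the list members were read for the site that PHR1 is known to bind, GNATATNC, which reads the same on both strands and overlaps none of the other motifs searched. In a window of 250 bases before to 50 after the annotated gene start (RefSeq, TAIR10.1), 11 of the 27 list members held it (40.7%), against 6.21% of all 24305 tested genes. Among called genes it was in 9.52% of those higher and 6.81% of those lower in hag2 nasp. Of the 15 list members called higher, 8 held it, and of the 12 not called, 3 did. This motif was chosen after the phosphate genes had been seen to differ, and a match is a description of letters, not of a bound site. The 250 bases before the start are printed 5′ to 3′ for the 5 called members with a match in that stretch, to show where the sites lie, with matches in capitals. SPX3 (chr2:18606160-18606409, plus strand) holds 2, beginning 213 and 90 bases before the start. SRG3 (chr3:350011-350260, minus strand) also holds 2, beginning 127 and 63 bases before it. MGD2 (chr5:6896213-6896462, plus strand), AT4 (chr5:894332-894581, plus strand) and PLDZETA2 (chr3:1634944-1635193, plus strand) hold 1 each, at 14, 26 and 180 bases.
SPX3: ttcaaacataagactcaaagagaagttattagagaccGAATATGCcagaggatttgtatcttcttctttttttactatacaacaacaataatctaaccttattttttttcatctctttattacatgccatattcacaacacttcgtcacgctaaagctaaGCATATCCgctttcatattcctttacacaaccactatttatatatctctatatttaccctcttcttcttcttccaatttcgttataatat
SRG3: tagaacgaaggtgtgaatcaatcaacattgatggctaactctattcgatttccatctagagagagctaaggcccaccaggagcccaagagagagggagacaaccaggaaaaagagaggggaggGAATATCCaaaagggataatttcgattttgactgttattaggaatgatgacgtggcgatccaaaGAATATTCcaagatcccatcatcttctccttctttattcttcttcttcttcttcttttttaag
MGD2: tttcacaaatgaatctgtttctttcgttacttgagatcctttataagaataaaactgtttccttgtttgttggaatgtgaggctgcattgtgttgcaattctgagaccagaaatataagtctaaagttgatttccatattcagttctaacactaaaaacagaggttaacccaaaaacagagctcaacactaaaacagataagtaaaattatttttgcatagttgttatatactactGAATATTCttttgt
AT4: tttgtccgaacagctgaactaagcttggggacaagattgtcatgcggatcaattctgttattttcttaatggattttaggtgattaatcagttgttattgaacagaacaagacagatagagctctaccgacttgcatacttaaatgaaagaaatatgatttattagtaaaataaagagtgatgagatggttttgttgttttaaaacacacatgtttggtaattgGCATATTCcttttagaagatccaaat
PLDZETA2: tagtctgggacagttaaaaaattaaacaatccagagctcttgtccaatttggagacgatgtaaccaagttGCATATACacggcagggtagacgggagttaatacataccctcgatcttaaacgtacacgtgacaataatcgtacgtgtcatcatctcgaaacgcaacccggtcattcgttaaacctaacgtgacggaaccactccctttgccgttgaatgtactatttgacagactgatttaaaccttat

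Among the 12 largest differences in the same direction were genes outside the list. AT5G20790, a gene for an uncharacterized protein, had 338, 220.4 and 291 in hag2 nasp, against 26.5, 45.7 and 16.8 in msi2 msi3 nasp (3.30 ± 0.28, limma, adjusted p = 2.4e-06). Its values were 481, 563 and 456 in nasp and 527, 820.3 and 1180.3 in wild type, above every library of both genotypes. AT3G25240, annotated as a putative import ATP-binding protein, had 53.2, 52.3 and 72.5 in hag2 nasp, against 3.67, 20.1 and 4.93 in msi2 msi3 nasp (2.83 ± 0.41, adjusted p = 0.00036). AT1G23110 had 76.2, 40.7 and 58.7 in hag2 nasp, against 5.60, 13.3 and 8.91 in msi2 msi3 nasp (2.56 ± 0.30, adjusted p = 4.6e-05). ARR3, a cytokinin response regulator gene, had 13.1, 25.9 and 9.72 in hag2 nasp, against 4.78, 1.85 and 2.97 in msi2 msi3 nasp, low in both genotypes against 60.9 ± 9.27 in wild type. The difference was 1.99 ± 0.30 (adjusted p = 0.0006). AT1G18280, a gene for a lipid-transfer-like protein, had 11.04, 16.3 and 12.7 in hag2 nasp, against 0.91, 3.80 and 2.97 in msi2 msi3 nasp (2.096 ± 0.60, adjusted p = 0.044), and its call was lost in 11 of 17 alternatives. The calls of AT3G25240 and ARR3 were lost in the fit on 6 libraries. The 12th largest difference was 1.99, at ARR3, and the next genes outside the rule were IPS1 at 1.97 and CYP94D1 at 1.89.

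Salicylic acid and immune genes lay on the other side. Salicylic acid is the hormone of defence against biotrophic pathogens, made through ICS1, with EDS1 and PAD4 as upstream signalling proteins and the NPR proteins as receptors. Of 32 list members, all tested, 14 were lower in hag2 nasp (43.8%, against 6.33% of all tested genes called). None was higher, with a median of -0.42 and 1 member above 0. The list was raised in both genotypes against wild type, with medians of 1.78 for hag2 nasp and 2.16 for msi2 msi3 nasp, which share the wild-type libraries. Leaving out any 1 of the 6 libraries left 5 to 12 members called, with 5 without hag2 nasp replicate 1, 6 without msi2 msi3 nasp replicate 1 and 9 without hag2 nasp replicate 2. The fit on 6 libraries called 6.

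In the synthesis and signalling step, ICS1 had 642, 717 and 634 in hag2 nasp, against 849, 946 and 857 in msi2 msi3 nasp. The groups did not overlap, and both stood above the wild-type mean of 242 ± 21.1, with a log2 difference of -0.41 ± 0.08 (limma, adjusted p = 0.0033). EDS1 was lower, at -0.35 ± 0.08 and PAD4 at -0.38 ± 0.08 (adjusted p = 0.012 and 0.0065), as were PBS3, which acts after ICS1 in synthesis, and SARD1, a transcription factor that switches ICS1 on. PBS3 had 296, 333 and 394 in hag2 nasp, against 554, 462 and 611 in msi2 msi3 nasp. SARD1 had 749.6, 780.2 and 828 in hag2 nasp, against 1288, 1158 and 1249 in msi2 msi3 nasp. The receptors NPR3 and NPR4 were lower, at -0.33 ± 0.08 and -0.39 ± 0.09, and NPR1 was not called, at -0.18 ± 0.06 (adjusted p = 0.073). Among transcription factors, WRKY54 had 206, 247 and 201 in hag2 nasp, against 509, 433 and 446 in msi2 msi3 nasp. The hag2 nasp libraries were near the wild-type mean of 184 ± 41.9 and the msi2 msi3 nasp libraries were all well above it (-1.08 ± 0.19, adjusted p = 0.0019). Its close relative WRKY70 had 1181, 1376 and 1255 in hag2 nasp, against 2299.9, 2155 and 2167 in msi2 msi3 nasp (-0.80 ± 0.20, adjusted p = 0.019). WRKY38 and WRKY33 were lower, at -0.81 ± 0.23 and -0.61 ± 0.13 (adjusted p = 0.043 and 0.01). Among defence outputs, PR5, a thaumatin-like protein gene, had 357, 382 and 359 in hag2 nasp, against 617, 609 and 659.8 in msi2 msi3 nasp. No library of either genotype overlapped the other, and both were well above the wild-type mean of 106 ± 28.6 (-0.78 ± 0.16, adjusted p = 0.0066). PR1 and PR2, the other classical markers, had wide spreads and were not called, at -0.99 ± 0.42 and -0.22 ± 0.33. ACD6 and NDR1, encoding membrane proteins of defence, were lower, at -1.03 ± 0.29 and -0.71 ± 0.16 (adjusted p = 0.041 and 0.011). WRKY38 and ACD6 lost their calls in 11 and 10 of the alternatives.

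Of 9 immune receptor and helper genes tested, 2 were lower and none higher (22.2%, against 6.33% of all tested genes called). Leaving out a library gave 1 or 2, with 1 without hag2 nasp replicate 2 or 3 or msi2 msi3 nasp replicate 1, and the fit on 6 libraries called none. The 2 lower genes were ADR1-L1, a helper receptor gene, at -0.35 ± 0.06, and SNC1, a resistance gene in a cluster of similar copies, at -0.29 ± 0.07 (limma, adjusted p = 0.0022 and 0.026), and the SNC1 call was lost in 5 alternatives.

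The jasmonate lists leaned the other way with few calls. Jasmonate is the wound hormone, and JAZ proteins repress its response and are induced by it. Of 22 tested genes of jasmonate synthesis and JAZ repressors, 20 lay above 0. Of the 22, 3 were called higher (13.6%, against 6.33% of all tested genes called). They were JAZ10, at 711, 579 and 960.3 in hag2 nasp, against 271, 223 and 632 in msi2 msi3 nasp, JAZ2, at 0.42 ± 0.09, and the synthesis gene AOC1, at 0.64 ± 0.17. JAZ10 values of replicate 3 were the highest in both genotypes, and its difference was 1.12 ± 0.27 (limma, adjusted p = 0.017). Leaving out a library gave 0 to 9 called members of this list, with 0 without msi2 msi3 nasp replicate 2, 1 without hag2 nasp replicate 3 or msi2 msi3 nasp replicate 1 and 9 without msi2 msi3 nasp replicate 3. The fit on 6 libraries gave none. All 8 herbivore-defence genes lay above 0 and 2 were called, VSP1 and CORI3, with 0 called without hag2 nasp replicate 1 or msi2 msi3 nasp replicate 1, 3 without msi2 msi3 nasp replicate 3 and 1 without any other library. VSP1, a vegetative storage protein gene, had 6914, 2889 and 2909 in hag2 nasp, against 678, 1227 and 2131 in msi2 msi3 nasp (1.68 ± 0.38, adjusted p = 0.013). CORI3 had 26348, 25498 and 30361 in hag2 nasp, against 15764, 18162 and 19646 in msi2 msi3 nasp (0.62 ± 0.18, adjusted p = 0.045), and its call was lost in 10 alternatives. Of 8 ethylene and jasmonate defence genes, only the chitinase gene CHI-B was called (12.5%), at 0.47 ± 0.09 (adjusted p = 0.0035). The defensin gene PDF1.2 was at 0.86 ± 0.30 (adjusted p = 0.1). AOC1, VSP1 and the defensins have near-identical copies among which reads could be divided.

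**Figure D4:**
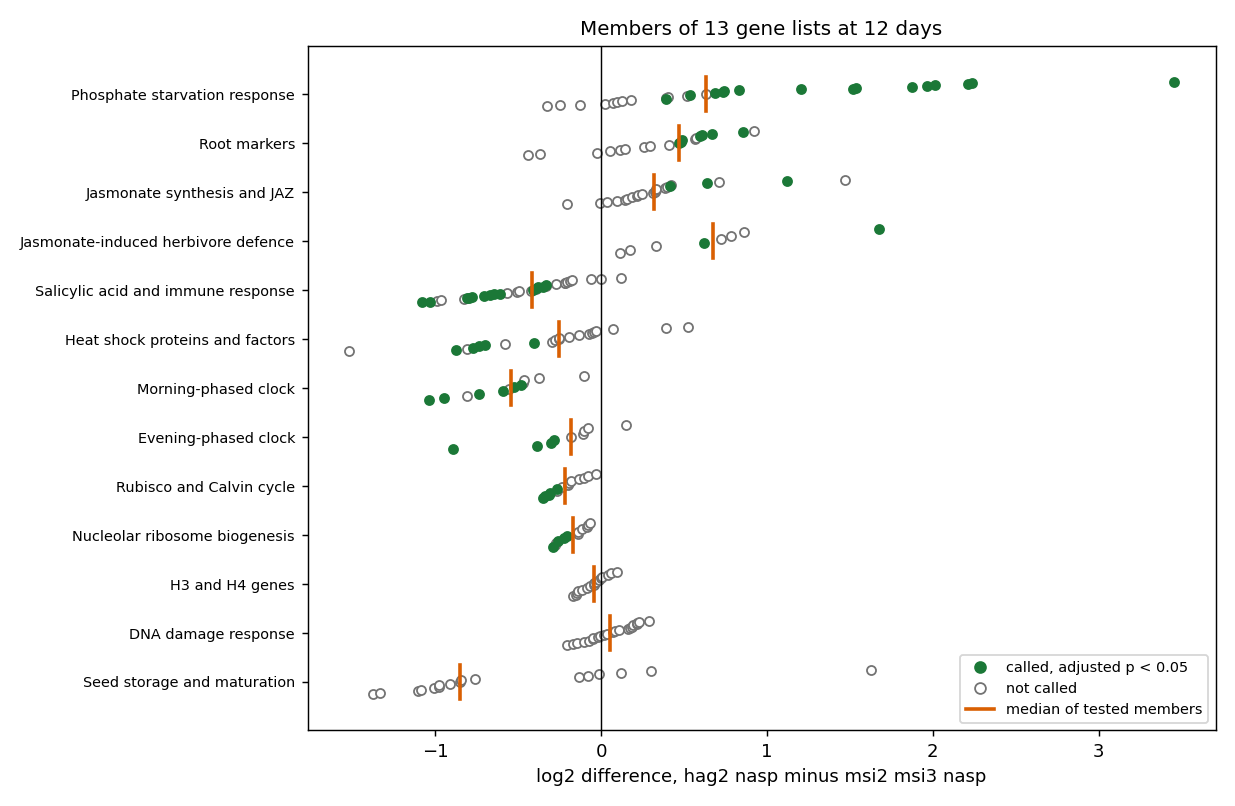
Log2 difference (hag2 nasp minus msi2 msi3 nasp) of every tested member of 13 gene lists, with green points called, open points not called and an orange bar at the list's median. Phosphate starvation genes reach 3.46 to the right of 0, the salicylic acid and morning clock lists lie to the left, and the H3 and H4 genes stay between -0.17 and 0.09.

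Many clock genes were lower in hag2 nasp. The plant clock is a loop in which the morning proteins CCA1 and LHY repress evening genes, and PRR proteins in turn repress CCA1 and LHY through the day. Of 12 morning-phased genes, all tested, 6 were lower (50.0%, against 6.33% of all tested genes called). None was higher and none lay above 0, with a median of -0.54. Of 9 evening-phased genes 4 were lower and none higher (44.4%), with a median of -0.18. Without 1 library there were 5 or 6 called morning genes, and 1 to 4 called evening genes, with 1 without msi2 msi3 nasp replicate 2 and 2 without hag2 nasp replicate 1 or 2. CCA1 had 73.3, 73.3 and 77.3 in hag2 nasp, against 170.0, 143 and 152 in msi2 msi3 nasp. Values within each genotype were close together, and both genotypes were below wild type, at 351 ± 122, and nasp, at 1028 ± 97.0. The log2 difference was -1.04 ± 0.19 (limma, adjusted p = 0.0024), and LHY, at a lower level, was at -0.81 ± 0.26 without a call (adjusted p = 0.081). LNK2, a coactivator gene of the clock, had 286, 306 and 233 in hag2 nasp, against 466, 449 and 455 in msi2 msi3 nasp (-0.74 ± 0.09, adjusted p = 0.00011), and LNK1 was lower, at -0.53 ± 0.09 (adjusted p = 0.0018). PRR9 had 25.1, 30.5 and 40.2 in hag2 nasp, against 70.3, 57.4 and 57.4 in msi2 msi3 nasp (-0.95 ± 0.18, adjusted p = 0.0032). PRR5 had 632, 605 and 683 in hag2 nasp, against 1110.2, 1249 and 1204 in msi2 msi3 nasp (-0.89 ± 0.08, adjusted p = 6.2e-06). The hag2 nasp mean was the lowest of the 5 genotypes for PRR5, with 1224 ± 168 in hag2 msi2 msi3, 1538 ± 23.5 in nasp and 1284 ± 99.8 in wild type. TOC1, the evening repressor gene, had 2396, 2432 and 2421 in hag2 nasp, against 2939.8, 3227 and 2679.7 in msi2 msi3 nasp (-0.28 ± 0.07, adjusted p = 0.015). ELF4 and FKF1, an evening complex member and a photoperiod photoreceptor gene, were lower, at -0.39 ± 0.10 and -0.30 ± 0.08 (adjusted p = 0.02 and 0.033). In the fit on 6 libraries only CCA1 of the morning list and PRR5 of the evening list were called. No source used here gives the hour of harvest, and its part in these differences was not tested.

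**Figure D5:**
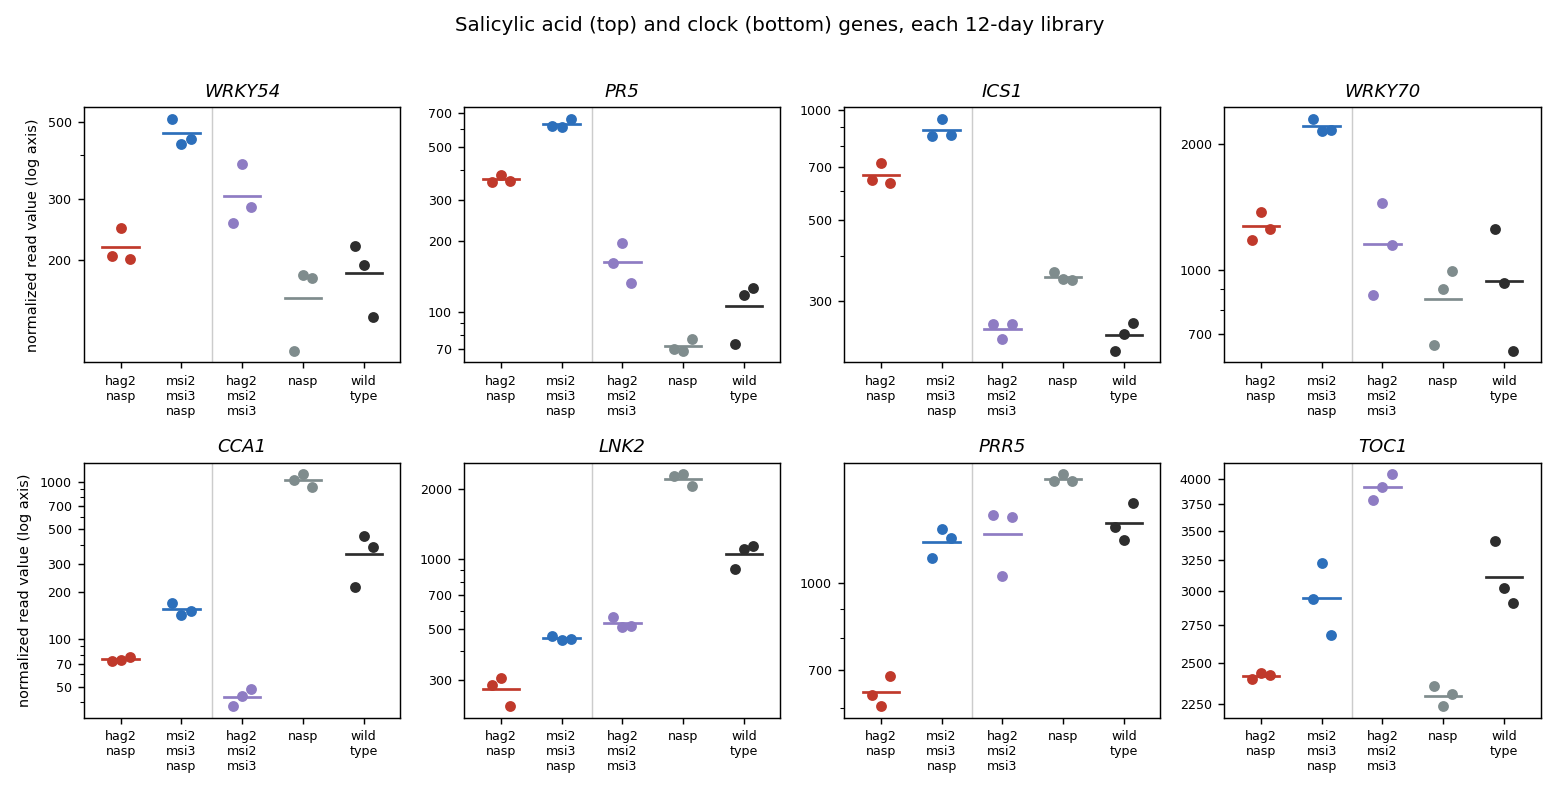
Normalized read value (log axis) of 4 salicylic acid genes (top) and 4 clock genes (bottom) in each of the 15 libraries, with a bar at the mean of 3. In each panel the hag2 nasp points lie below the msi2 msi3 nasp points, on the salicylic acid genes both stand above or near wild type, and on CCA1 and LNK2 both stand below nasp and wild type.

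The evening element, AAAATATCT, is a site through which clock proteins act on evening genes. Searched on both strands in the same window, it was in 8.58% of the 793 genes lower in hag2 nasp, 2.01% of the 746 higher and 2.87% of all 24305 tested. The G-box, CACGTG, a site of light and clock regulators, was in 10.97% of the lower genes, 6.57% of the higher and 8.22% of all tested, and in 10 of the 12 morning-phased genes. The W-box cores TTGACC and TTGACT, sites of WRKY factors, were in 33.9% of the lower genes, 30.0% of the higher and 32.5% of all. The GCC-box, GCCGCC, a site of ethylene response factors, was in 2.02% of the lower genes, 1.47% of the higher and 2.61% of all. None of these shares was tested. The 250 bases before the start are printed for the 3 called clock genes with an evening element there, with the element, or its reverse complement, in capitals. They are PRR5 (chr5:8358547-8358796, minus strand), TOC1 (chr5:24674713-24674962, plus strand) and FKF1 (chr1:25508389-25508638, plus strand), all TAIR10.1.
PRR5: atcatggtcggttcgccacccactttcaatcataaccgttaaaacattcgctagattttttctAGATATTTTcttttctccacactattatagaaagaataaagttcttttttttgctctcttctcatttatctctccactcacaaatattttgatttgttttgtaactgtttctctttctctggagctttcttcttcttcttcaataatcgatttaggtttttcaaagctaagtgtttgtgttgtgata
TOC1: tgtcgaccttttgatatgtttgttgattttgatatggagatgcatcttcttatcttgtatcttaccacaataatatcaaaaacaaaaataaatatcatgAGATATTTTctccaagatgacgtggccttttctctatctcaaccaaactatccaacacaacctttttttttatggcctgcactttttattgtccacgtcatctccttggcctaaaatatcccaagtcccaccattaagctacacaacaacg
FKF1: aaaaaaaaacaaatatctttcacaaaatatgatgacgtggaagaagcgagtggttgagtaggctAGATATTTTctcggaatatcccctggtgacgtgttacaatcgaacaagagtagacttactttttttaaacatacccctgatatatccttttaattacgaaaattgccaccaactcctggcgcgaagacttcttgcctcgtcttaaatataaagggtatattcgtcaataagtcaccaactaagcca

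Heat shock genes were in part lower. Of 21 tested, 5 were lower and none higher (23.8%, against 6.33% of all tested genes called), with a median of -0.25. Leaving out a library gave 2 to 6, with 2 without hag2 nasp replicate 1 and 3 without hag2 nasp replicate 2 or msi2 msi3 nasp replicate 1 or 2. The 5 lower were the chaperone genes HSP90.1, with 933, 1229 and 1144 in hag2 nasp, against 1830.4, 1824 and 1694 in msi2 msi3 nasp, and HSP70, at -0.41 ± 0.10, the co-chaperone gene ROF2, with 261, 323 and 242 in hag2 nasp, against 445, 464 and 462 in msi2 msi3 nasp, and the transcription factor genes HSFA2 and DREB2A, at -0.87 ± 0.22 and -0.77 ± 0.17. The differences of HSP90.1 and ROF2 were -0.70 ± 0.09 and -0.74 ± 0.10 (limma, adjusted p = 0.0001 and 0.00017), and their groups did not overlap. The small heat shock protein genes of the list were not called. The fit on 6 libraries called none of the 21, with adjusted p = 0.055 for HSP90.1. Of 10 touch and wound genes tested, ERF104 and DIC2 were lower (20.0%), at -0.88 ± 0.18 and -0.91 ± 0.20. The number called was 1 without hag2 nasp replicate 1, 5 without hag2 nasp replicate 3 and 4 without msi2 msi3 nasp replicate 1. The fit on 6 libraries called none of these 10. The cold and stress regulator gene ZAT12 was lower at -0.80 ± 0.18. RAB18, a dehydrin gene, was the 1 called of 19 genes of the abscisic acid response. It had 140.5, 145 and 159.6 in hag2 nasp, against 339, 603 and 244 in msi2 msi3 nasp (-1.31 ± 0.22, adjusted p = 0.0015). Of those 19 genes, 18 lay below 0, with a median of -0.25, and leaving out a library gave 1 to 5 calls. In the fit on 6 libraries the calls of ZAT12 and RAB18 were lost.

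Green-tissue genes overlapped in summed level, while most single genes of the antenna, photosystem and Calvin cycle lists lay below 0. Of 25 photosystem and electron transport genes, 24 lay below 0, with a median of -0.11 and 1 called lower. Of 17 antenna genes tested, 12 lay below 0, with a median of -0.02. The summed level of the 57 members of the antenna, photosystem and Calvin cycle lists was 1013000 to 1078000 in hag2 nasp, 1011000 to 1160000 in msi2 msi3 nasp and 2475000 to 2514000 in wild type. Of 14 Rubisco and Calvin cycle genes, 5 were lower (35.7%, against 6.33% of all tested genes called). None lay above 0, with a median of -0.22 and 0 to 6 called when a library was left out. The number called was 0 without msi2 msi3 nasp replicate 2, 1 without hag2 nasp replicate 3 and 2 without hag2 nasp replicate 1. FBA1, an aldolase gene, was lower, at -0.35 ± 0.08 and PRK, for phosphoribulokinase, at -0.34 ± 0.08 (limma, adjusted p = 0.016 and 0.018), and GAPB, for a glyceraldehyde-3-phosphate dehydrogenase subunit, at -0.31 ± 0.08. Of 17 antenna genes, LHCB1.1 and LHCB2.1 were lower (11.8%). LHCB1.1 had 1543, 1369.7 and 1425 in hag2 nasp, against 2825, 2972 and 3055 in msi2 msi3 nasp, against 19387 ± 3413 in wild type, and its difference was -1.03 ± 0.11 (adjusted p = 1.6e-05). LHCB1 genes are near-identical copies, so reads could be divided among them. In the chlorophyll list 3 of 15 were lower (20.0%). They were led by CAO, the gene for chlorophyllide a oxygenase, with 937, 889.7 and 873 in hag2 nasp, against 1301, 1327 and 1182 in msi2 msi3 nasp (-0.50 ± 0.07, adjusted p = 0.00021). The other lower members were PORC, a protochlorophyllide oxidoreductase gene, at -0.34 ± 0.08, and CHLH, a magnesium chelatase subunit gene, at -0.32 ± 0.09. Without msi2 msi3 nasp replicate 2 the chlorophyll list had 1 call, the same number as in the fit on 6 libraries.

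Some root genes were higher in hag2 nasp. Of 19 root markers, all tested, 7 were higher (36.8%, against 6.33% of all tested genes called) and none lower, with a median of 0.47. Leaving out a library gave 5 to 7, and the fit on 6 libraries called 2. No marker was at 0 in all 6 libraries. PYK10, the most abundant of them, was not called, at 0.26 ± 0.11 (limma, adjusted p = 0.18). EXPA18 and EXPA7, expansin genes of root hairs, led the list. EXPA18 had 242, 228 and 238 in hag2 nasp, against 139, 125 and 126 in msi2 msi3 nasp (0.86 ± 0.09, adjusted p = 1.6e-05), and EXPA7 was higher by 0.67 ± 0.11 (adjusted p = 0.0011). PRP3, a cell wall protein gene of root hairs, had 1239, 1069.6 and 1105 in hag2 nasp, against 761, 740.2 and 736 in msi2 msi3 nasp (0.61 ± 0.07, adjusted p = 3e-05). The endodermis marker CASP2 was higher by 0.48 ± 0.13, while the meristem genes WOX5, PLT1 and PLT2 were at 0.15, -0.44 and 0.92 without a call.

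A few genes of seed maturation stood among the largest negative differences, and in these replicate 2 of msi2 msi3 nasp was the highest library. AT1G68250, for an uncharacterized protein, had 31.1, 19.0 and 17.56 in hag2 nasp, against 55.1, 661 and 109.7 in msi2 msi3 nasp. AT4G36600, a late embryogenesis abundant protein gene, had 5.02, 5.72 and 4.89 in hag2 nasp, against 20.2, 128 and 23.7 in msi2 msi3 nasp. In both genes that replicate was several times higher than the others, and the differences were -2.81 ± 0.63 and -2.72 ± 0.59 (limma, adjusted p = 0.011 and 0.01). AT1G54870 and AT2G42560, the second a late embryogenesis abundant domain gene, had the same replicate on top, at -2.53 ± 0.61 and -2.37 ± 0.61. The calls of AT4G36600, AT1G54870, AT2G42560 and APD3, a RING domain gene at -2.34 ± 0.51, were lost without it. AT3G22490, a seed maturation protein gene, had 3.01, 3.82 and 2.93 in hag2 nasp, against 13, 55.5 and 10.8 in msi2 msi3 nasp (-2.32 ± 0.48, adjusted p = 0.0066). BETA-TIP, for a seed tonoplast channel, was at -2.32 ± 0.48. Of the 17 tested genes in the seed storage and maturation list none was called, though the median was -0.85, and -0.36 without msi2 msi3 nasp replicate 2. The list summed to 878, 927 and 300.5 in hag2 nasp, against 2463, 1046 and 445 in msi2 msi3 nasp, so that in the list's sum replicate 1, not replicate 2, was the highest. MEE65, named for an embryo arrest mutant, and AT3G23970, an F-box gene, were low in all libraries. MEE65 had 2.01, 2.89 and 0 in hag2 nasp, against 11.4, 13.2 and 9.90 in msi2 msi3 nasp (-2.45 ± 0.52), and AT3G23970 had values below 1 in hag2 nasp, against 5.68, 6.62 and 4.95 in msi2 msi3 nasp (-2.42 ± 0.40, adjusted p = 0.0013). Of the single genes named in this paragraph, all but AT3G23970 lost their call in the fit on 6 libraries, and again with a pseudocount of 0.1.

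Among flowering genes, 3 of 15 repressors were lower (20.0%, against 6.33% of all tested genes called) and none higher. The fit on 6 libraries called none of the 15. TEM1 had 1028, 1167 and 1358 in hag2 nasp, against 1991, 2239 and 3321 in msi2 msi3 nasp (-1.06 ± 0.13, limma, adjusted p = 8.6e-05). TEM2 and SNZ were lower, at -0.81 ± 0.14 and -0.64 ± 0.12. SPL9, which promotes the change from juvenile to adult growth, was lower, at -0.56 ± 0.13, the 1 called of 13 floral integrator and meristem genes. SEP4, at -0.59 ± 0.15, was the 1 called of 9 floral organ genes, of which 6 lay above 0 with a list median of 0.34, and its call was lost in 6 alternatives. ORE1, a regulator of leaf senescence, was the 1 called of 16 senescence genes, at -0.76 ± 0.11. The calls of SPL9 and ORE1 were lost in the fit on 6 libraries, and that of SPL9 also without msi2 msi3 nasp replicate 2, among other settings. MYBL2, a repressor of anthocyanin synthesis and the 1 called of 21 flavonoid genes, had 161, 154 and 182 in hag2 nasp, against 314, 338 and 392.4 in msi2 msi3 nasp (-1.06 ± 0.17, adjusted p = 0.00094). Of 12 nucleolar genes 4 were lower by small amounts (33.3%), such as NUC-L1, for nucleolin, at -0.29 ± 0.06 (adjusted p = 0.0072). PES, for pescadillo, was at -0.26 ± 0.06 and CBF5, a pseudouridine synthase gene, at -0.20 ± 0.06. Without 1 library there were 2 or 3 called nucleolar genes, namely 3 without hag2 nasp replicate 3 or msi2 msi3 nasp replicate 2 and 2 without any other, and the fit on 6 libraries called none. The lists for alpha-expansins, cold, iron deficiency, auxin, cytokinin, glucosinolates, DNA methylation, replication, mitosis and photosystems, with 10 to 28 genes tested, gave 1 or 2 calls each. Their shares called ran from 3.57% for iron deficiency to 20.0% for alpha-expansins, against 6.33% of all tested genes, 5 of the 10 lay below that share, and the fit on 6 libraries called none of their genes. The calls are thus given as single genes. Higher members were the expansin genes EXPA5, at 0.53 ± 0.07, and EXPA10, at 0.52 ± 0.11, the galactinol synthase gene GOLS3, at 0.72 ± 0.18, and the coumarin synthesis gene F6'H1, at 0.56 ± 0.11. The auxin repressor gene IAA31 and the glucosinolate sulfotransferase gene SOT17 were higher by 1.06 ± 0.30 and 0.34 ± 0.10, and their calls were lost in 12 and 8 alternatives. Lower members were NRPE1, the largest subunit of RNA polymerase V, at -0.50 ± 0.11, and RNR2A, for ribonucleotide reductase, at -0.32 ± 0.08. The cytokinesis gene KNOLLE was at -0.38 ± 0.10, with its call lost in 7 alternatives, and the plastocyanin gene PETE1 was at -0.31 ± 0.06. The calls of RNR2A, GOLS3 and CBF5 were lost without hag2 nasp replicate 1, without hag2 nasp replicate 2 and without msi2 msi3 nasp replicate 2, among other settings. That of NRPE1 was lost without replicate 2 of either genotype.

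Histone genes and most chromatin regulators did not differ detectably. Of 16 H3 and H4 genes none was called, with a median of -0.04 and a range of -0.17 to 0.09, although their medians against wild type were 1.86 for hag2 nasp and 2.01 for msi2 msi3 nasp. No member was called among 20 H2A and H2B genes, 3 linker histone genes, 13 other histone chaperones, 11 nuclear histone acetyltransferases, 15 histone deacetylases and 12 Polycomb genes. The 22 tested genes of the DNA damage response had a median of 0.05 and no call, against medians of 1.76 for hag2 nasp and 1.61 for msi2 msi3 nasp over wild type. Histone genes are near-identical copies, so single-gene values among them are uncertain. Indole glucosinolate, endoplasmic reticulum stress, ferritin, ribosomal protein and tapetum genes also gave no call, with 15, 13, 4, 19 and 8 genes tested. Some lists without a call still leaned to a side by small amounts. Below 0 lay all 13 endoplasmic reticulum stress genes (median -0.07), 16 of 19 ribosomal protein genes (-0.05) and 14 of 15 deacetylase genes (-0.09). All 3 linker histone genes lay above 0 (median 0.11). A miss of the threshold does not show that the genotypes are equal. In values simulated from the 12-day libraries, the same test called 72 of 100 genes changed by 1 on the log2 scale. It called 91 of 100 changed by 2, with 8 false calls. The median SDs of the 2 genotypes, 0.127 for hag2 nasp and 0.135 for msi2 msi3 nasp, were the largest at 12 days. Whether these counts hold at that spread, or with replicate 3 set apart, was not tested.

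Called genes were also counted around the mutated loci. Within 100 kb, 2.38% of tested genes were called around HAG2, 3.13% around MSI2, 1.96% around MSI3 and 5.17% around NASP, from 32 to 58 genes each. Within 500 kb, 7.88% were called around HAG2, 7.43% around MSI2, 7.25% around MSI3 and 3.75% around NASP, against 6.33% in all.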

How the data were processed

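RNA sequencing of Arabidopsis seedlings gave a table of 32548 genes by 15 libraries at 12 days of age. The authors deposited normalized signal values per gene that are not whole numbers and could not be turned back into reads, so the depth is unknown and limma was used, not a count test. Per the submitters' processing notes, bcl2fastq, HISAT2 and edgeR were used with the TAIR10 build; no source used here gives versions or the normalization step. The 20-day table (9 libraries) was not used here.

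A gene was kept where 3 or more of the 15 libraries had a value of 1 or more. Log2(value + 1) was fitted in limma 3.58.1 (R 4.3.3) with 1 term per genotype over all 15 libraries and a mean-variance trend. P-values were adjusted by Benjamini-Hochberg over 24305 genes, and adjusted p below 0.05 was called. The test was checked on simulated data. Gene names, coordinates and promoters come from RefSeq, TAIR10.1, where all 32548 genes matched by locus tag.

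Named genes are the 7 NuB4 subunits and MSI relatives, and the 12 largest called differences in each direction provided that the groups did not overlap and the higher mean reached 5. Of the 1539 called genes, 1474 met both conditions, so a lack of overlap at a called gene adds little to its call. Up to 3 called members of each list with the lowest adjusted p were also named. Further members were named after their values had been seen. Members and gene lists were chosen with earlier results of these data known. Lists are described by counts and medians, without a set test. Alternatives, 17 in all, changed the pseudocount (0.1 or 5), the filter (none or at least 5), the scaling, the weights, the libraries in the fit, or added a replicate block.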

Additional observations from a re-analysis of the deposited data

How the results depend on the processing

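The count of called genes, 1539 (746 higher and 793 lower in hag2 nasp), stayed between 1424 and 1609 under another pseudocount, filter, scaling, weighting or variance model. With the 6 libraries of the 2 genotypes alone it was 193, with 107 higher and 86 lower. That fit has fewer libraries for the spread, and these 2 genotypes had the largest median SDs at 12 days, 0.127 and 0.135. Leaving out 1 library gave 912 to 1856 called genes, 484 to 1001 higher and 428 to 855 lower. The lowest counts came without msi2 msi3 nasp replicate 2 (912) and without hag2 nasp replicate 1 (965), and the cause was not tested. In all, 611 genes were called whichever 1 library was left out, and 162 in every alternative. Of the 82 called genes that the rule named, 21 kept their call in every alternative, 61 lost it in the fit on 6 libraries and 24 of those only there, and none changed direction. Leaving out 1 library cost 6 to 26 of the 82 calls. Without replicate 3 of both genotypes, an alternative added after seeing the data, 1514 genes were called and 11 of the 82 lost their call.

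With the replicate number as a block, 1602 genes were called (764 higher and 838 lower). The numbers were not taken as pairs in the main fit. The correlation of deviations between same-numbered libraries was -0.011, 0.054 and 0.096, and between different-numbered libraries it ran from -0.090 to 0.041. Replicate 3 of both genotypes lay on the same side of the second principal component, at -26.45 and -39.66. Whether same-numbered libraries share an effect was not tested.

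Precision is limited by 3 libraries per genotype and by the lack of raw counts in the deposited values. Genes with values of a few units carry the widest errors, and fold changes on the log2(value + 1) scale understate the change of low genes.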

Other observations

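Genes of the plant surface formed a group outside the lists, picked out after their values had been seen and given here as a description. Very-long-chain fatty acids made by 3-ketoacyl-CoA synthases (KCS) are the starting material of cuticular wax. Many of the eceriferum (CER) genes act in its synthesis or export, while CER7 encodes an exoribonuclease and CER9 a RING domain protein. Of 19 tested KCS genes, 9 were higher in hag2 nasp than in msi2 msi3 nasp and none lower (against 3.07% of all tested genes higher), with a median log2 difference of 0.35. Of 12 tested CER genes, which include KCS5, KCS6 and the transporter gene ABCG12, 8 were higher and none lower, with a median of 0.39. Leaving out a library gave 8 to 11 KCS calls and 8 CER calls, and the fit on 6 libraries gave 5 and 4. KCS1 had 2284, 2253 and 2099 in hag2 nasp, against 1155, 1182 and 1242 in msi2 msi3 nasp (0.89 ± 0.08, limma, adjusted p = 4.3e-06). CER3 had 5449.9, 5949 and 5726 in hag2 nasp, against 3491, 2855 and 3207 in msi2 msi3 nasp (0.85 ± 0.07, adjusted p = 1.8e-06). Its mean was 1231 ± 71.1 in wild type, below every library of both genotypes. CER2, needed to lengthen the longest wax precursors, was higher by 0.82 ± 0.07. CER1, which makes wax alkanes together with CER3, was not called, at -0.38 ± 0.20 (adjusted p = 0.32). The cutin genes CYP86A2 and DCF were higher by 0.88 ± 0.05 and 0.98 ± 0.09, and the export transporters ABCG11 and ABCG12 by 0.48 ± 0.05 and 0.46 ± 0.06. Of the whole ABCG family, 41 genes tested, 5 were higher and 1 lower, with a median of 0.15, and the fit on 6 libraries called 2. KCS6, KCS11, KCS12, CER10, AT4G13840 and CER4 lost their calls in the fit on 6 libraries alone, and KCS13 there and in 3 other alternatives, while the calls of KCS1, CER2, CER3, CYP86A2, DCF, ABCG11 and ABCG12 held in every alternative.

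Genes that RefSeq names as root hair specific were also read as a whole family. Of 18 tested, 10 were higher in hag2 nasp and none lower (against 3.07% of all tested genes higher), with a median of 0.62. Leaving out a library gave 8 to 10, and the fit on 6 libraries 4. PRP1 had 349, 253 and 260.1 in hag2 nasp, against 129.9, 139.7 and 121 in msi2 msi3 nasp (1.12 ± 0.11, limma, adjusted p = 1.2e-05), and RHS19 had 576, 519 and 511 in hag2 nasp, against 259, 325 and 302 in msi2 msi3 nasp (0.86 ± 0.09, adjusted p = 2.8e-05). Both genotypes were below wild type at these genes, with 861 ± 63.7 for PRP1 and 1492 ± 209 for RHS19. G3Pp1, a glycerol-3-phosphate transporter gene, had 1914, 1768 and 1933 in hag2 nasp, against 931, 874 and 866 in msi2 msi3 nasp (1.07 ± 0.14, adjusted p = 0.00019). AT5G11330 had 401, 418 and 425 in hag2 nasp, against 1549.5, 1592 and 1564 in msi2 msi3 nasp. Its mean was 1304 ± 51.8 in nasp and 1366 ± 62.1 in wild type, so that hag2 nasp was the low group (-1.92 ± 0.06, adjusted p = 9e-13). ICL, the isocitrate lyase gene of the glyoxylate cycle, had 331, 298 and 323 in hag2 nasp, against 599, 1429 and 1284 in msi2 msi3 nasp (-1.70 ± 0.22, adjusted p = 0.00015). These genes were likewise chosen after their values had been seen.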
